A study of Homo sapiens with 18 samples.

Results

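Chromosome arm 16q carries a stretch of neighbouring genes that were lower in U2OS cells overexpressing mutant DNMT3A than in the control line. These genes were followed across all groups of the study. Gene starts in the stretch run from VPS4A to HSBP1, over 14.5 Mb of chromosome 16 (hg38). Its members are the protein-coding genes that start in the interval and average at least 20 estimated counts over the 18 libraries, apart from AARS, KARS, PSMD7 and RFWD3, which the rule leaves out. That gave 67 members among the 25296 genes of the deposited table. The interval holds 96 protein-coding genes in all, of which 25 lay under the count minimum. The interval was selected on its shift between the untreated lines, that is, on the log2 fold changes of these same genes there, so the untreated line differences are given here as a description only, with no test.

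Total RNA was sequenced from U2OS, an established human osteosarcoma line, in 3 derived lines. One carried the empty retroviral vector MigR1 (EV), one overexpressed wild-type DNMT3A (WT) and one overexpressed mutant DNMT3A (MUT). The mutation is named R882C in the series text and R882H in the sample labels, and the line is given as mutant. Cells of each line were taken without drug (called untreated in the labels and vehicle control in the series text) and after 24 h with 10 µM cytarabine, as biological triplicates, which makes 6 groups of 3. All groups share the U2OS parent, and MigR1 is named only for the control line, so the vector of the DNMT3A lines is not given in the sources used here. The labels do not say whether a line is a clone or a pool, and each construct is represented by 1 line, so the construct and the line cannot be told apart. The replicates are cultures of that line, and the tests measure the spread between such cultures.

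DNMT3A is one of the enzymes that place new methyl groups on cytosines of CG dinucleotides in DNA. Cytarabine is a nucleoside drug that growing DNA takes up in place of deoxycytidine, which stalls replication. The genes of the interval have no shared function. They include subunits of shelterin, the complex that caps telomeres, splicing and ribosome assembly factors, membrane traffic subunits, metabolic enzymes and transcription factors. U2OS maintains its telomeres without telomerase, by the recombination route known as alternative lengthening of telomeres. DNA copy number and DNA methylation of the interval were not analysed here.

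Promoter sequences are printed for 3 members because CG dinucleotides are what DNMT3A acts on, and because these members span the range of the shift. TERF2IP was lowered by close to the median of the block, VAT1L had the largest drop of all members in treated MUT against EV, and FUK (FCSK in RefSeq) was among the least lowered. Each window holds 300 bases, from 250 before to 50 after the RefSeq gene start, on GRCh38.p14 and the plus strand, and capitals mark each CG, which reads the same on both strands. The windows are chr16:75647523-75647822 for TERF2IP, with 25 CG, chr16:77788314-77788613 for VAT1L, with 19 CG, and chr16:70454345-70454644 for FUK, with 32 CG.
TERF2IP: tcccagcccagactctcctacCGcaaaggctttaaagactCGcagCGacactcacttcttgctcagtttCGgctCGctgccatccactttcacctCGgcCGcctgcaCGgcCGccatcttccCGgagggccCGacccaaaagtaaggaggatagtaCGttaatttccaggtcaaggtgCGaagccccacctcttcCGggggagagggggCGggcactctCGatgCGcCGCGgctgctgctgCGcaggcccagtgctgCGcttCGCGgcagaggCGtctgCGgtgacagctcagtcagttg
VAT1L: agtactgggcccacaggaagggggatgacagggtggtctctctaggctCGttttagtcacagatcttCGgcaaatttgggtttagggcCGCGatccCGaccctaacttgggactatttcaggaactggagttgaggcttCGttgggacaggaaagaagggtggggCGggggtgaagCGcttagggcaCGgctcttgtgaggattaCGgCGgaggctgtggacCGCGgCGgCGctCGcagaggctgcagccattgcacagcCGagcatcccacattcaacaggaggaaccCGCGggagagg
FUK: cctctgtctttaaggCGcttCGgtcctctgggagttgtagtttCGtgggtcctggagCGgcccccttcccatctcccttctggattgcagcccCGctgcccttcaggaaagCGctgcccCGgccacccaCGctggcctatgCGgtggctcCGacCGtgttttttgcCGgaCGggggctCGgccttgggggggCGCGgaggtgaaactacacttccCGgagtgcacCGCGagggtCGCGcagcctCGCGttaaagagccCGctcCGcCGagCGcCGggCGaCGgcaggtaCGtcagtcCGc

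A window was at hand for 55 of the 67 members. Their median was 25 CG per window, against 22 over the windows of 15843 protein-coding genes. At least 10 CG were present in the windows of 45 members, which is 81.8% of those matched, against 73.0% of all windows. At least 1 CG was present in all 55 windows and in 98.1% of all windows. Across these 55 members the number of CG and the log2 fold change in treated MUT against EV had a Pearson's r of 0.02 and a Spearman's rho of -0.02, as a description over members that share libraries and are not replicates. FUK, with the most CG of the 3 printed windows, had the smallest difference among them. These counts describe letters in a window and say nothing of methylation.

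Library totals ran from 15.4 to 21.9 M estimated counts. DNMT3A, the overexpressed gene, stood at 26.2 to 27.5 CPM (counts per M counts of scaled library size) in untreated EV, 129 to 139 CPM in untreated WT and 254 to 615 CPM in untreated MUT. After cytarabine it stood at 45.5 to 49.6 CPM in EV, 166 to 182 CPM in WT and 515 to 532 CPM in MUT. The WT and MUT lines thus differed in DNMT3A level as well as in the mutation, and these cannot be told apart. The 3 untreated MUT libraries were the least alike of any group, and replicate 3 held the 254 CPM, replicates 1 and 2 the higher values of 500 and 615 CPM. Of 8 mesenchymal and bone markers all were present (summed level 2440 to 3430 CPM over the libraries), although COL1A2, a collagen gene, was at only 0.273 to 8.76 CPM. The summed level of 6 markers of leukocytes, epithelium, endothelium and hepatocytes was 3.56 to 14.6 CPM, with PECAM1 and ALB each at 0 in at least 1 library. In RNA from whole cultures, fewer cells with a transcript and less transcript per cell cannot be told apart.

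In treated cells the block was lower in both DNMT3A lines than in EV, and lower in MUT than in WT. For every library the median over the 67 members of the log2 ratio to the EV mean of the same treatment was taken. With cytarabine it was -0.26, -0.27 and -0.27 in WT and -0.51, -0.47 and -0.51 in MUT. No treated MUT library overlapped a treated WT library and no treated WT library overlapped a treated EV library. In the untreated libraries, whose values chose the block, it was -0.28, -0.26 and -0.30 in WT and -0.52, -0.49 and -0.59 in MUT, given as a description. In both treatments the EV libraries themselves stayed within 0.03 of 0. They centre on 0 because the ratio is taken to their own mean, so only their spread is informative. Over all tested genes the library medians lay between -0.02 and 0.02, where library scaling holds them near 0. Over the other protein-coding genes of chromosome 16 they lay between -0.08 and 0.02, the lowest in MUT.

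**Figure D1:**
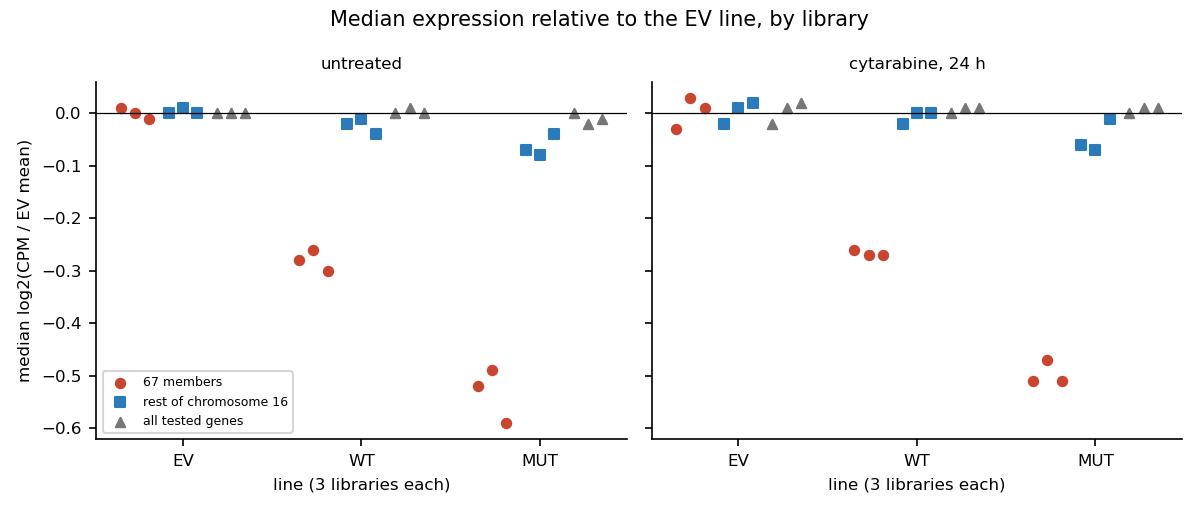
Median log2 ratio of CPM to the EV mean of the same treatment (y axis) for each of the 3 libraries of each line (x axis), untreated on the left and after cytarabine on the right. Circles stand for the 67 members, squares for the rest of chromosome 16 and triangles for all tested genes. The member medians step down from EV over WT to MUT, to -0.59 at the lowest, while the other medians stay within 0.08 of 0. Library scaling holds the medians over all tested genes near 0, and EV centres on 0 as the reference.

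Among untreated lines, where the block was chosen, the median member stood at 0.70 of its EV level in MUT (log2 fold change -0.52) and at 0.833 in WT (-0.26). MUT against WT gave a median of -0.22. Of the 67 members 66 were below EV in MUT. These values chose the members. Here and in the accounts of single genes, untreated levels and whether the untreated lines overlap are a description and support nothing.

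The treated cultures were separate from those used to choose the block, although they come from the same lines. There the median member stood at 0.693 of its EV level in MUT (log2 fold change -0.53), with an interquartile range of 0.26 and values from -1.40 to 0.04. Over all tested genes the median was -0.01. Of the 67 members 54 were called lower and 0 higher at an adjusted p under 0.05 in edgeR with Benjamini-Hochberg adjustment over 18226 genes, where 7.13% of all tested genes were called lower and 6.85% higher. All libraries of MUT lay below all of EV for 61 members, against 16.5% of all genes. Of the 54 called, 41 passed with each single library left out, and the count ran from 44 to 52 over these fits. The other 13 were ADAT1, ATXN1L, DDX19B, EXOSC6, MLKL, MPHOSPH6, PDPR, PLCG2, SF3B3, TERF2, TMEM170A, TXNL4B and ZNF19. Without the 3 untreated MUT libraries, a setting chosen after the data were seen, 60 members were called lower.

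Treated WT cells differed from EV in the same direction by less. The median member stood at 0.841 of EV (log2 fold change -0.25), 31 members were called lower and 1, CHST4, higher in the edgeR test, against backgrounds of 9.12% lower and 7.41% higher. This count rested partly on single libraries. Without treated WT replicate 2 it was 20 in all, and without treated WT replicate 3 it was 21. Of the 32 called, 16 passed with each single library left out, and the calls of ATMIN, BCAR1, CENPN, CFDP1, EXOSC6, HSBP1, HYDIN, IST1, MON1B, NIP7, NQO1, PDPR, VPS4A, WDR59, CHST4 and AC092718.3 were each lost at least once. MUT against WT among treated cells gave a median of -0.31, with 34 members called lower and 3 higher, against backgrounds of 9.48% and 10.4%. The 3 higher in MUT than in WT were ST3GAL2, CHST6 and CDH13. Of these 37 calls 20 passed with each single library left out, and the count ran from 26 to 30. These contrasts share groups, so they are given side by side. In group means the order EV, then WT, then MUT held for 49 members untreated and for 49 treated. The untreated order comes from the values that chose the block. The share of all tested genes with this order was not taken, so both counts are a description.

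Untreated and treated cultures share no library, and their line differences can be set side by side across members as a description. Over the 67 members Pearson's r was 0.49 when MUT was set against EV. It was 0.77 when MUT was set against WT, and 0.58 when WT was set against EV. Spearman's rho, which uses ranks, was lower in each case, at 0.30, 0.67 and 0.49 in the same order. The untreated values chose the members, and the members share libraries and neighbourhood, so no p is given.

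Most members sat close to the common shift. In treated MUT against EV, 46 of the 67 lay within 0.2 of the block's median on the log2 scale. The interquartile range of 0.26 compares with 0.31 over the 12882 other protein-coding genes that passed the same count minimum, whose median was 0.01. The share of these other genes within 0.2 of their own median was not taken. In treated MUT against WT 38 members lay within 0.2 of the block's median, with an interquartile range of 0.31 beside 0.34 over the other genes. In treated WT against EV 45 did, with 0.25 beside 0.31. In treated MUT against EV the median by strand was -0.52 on plus (31 members) and -0.53 on minus (36 members). By length it was -0.52 for the 18 members that span at least 100 kb and -0.53 for the other 49. Members whose log2 CPM averaged 5 or more had a median of -0.50, and the others one of -0.55. Of the members 38 overlap another gene's row, and the strand setting of the counting is not given in the sources used here. The 29 members that overlap no other row had a median of -0.53 and the overlapping members one of -0.51. In the other treated contrasts the medians were further apart. For MUT against WT the median was -0.17 in members that overlap no other row and -0.34 in those that do, and for WT against EV it was -0.37 and -0.21. The difference between these sets of members was not tested.

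The distance between the lines differed along the interval, which is given as a description. The interval was split at the start of CMTR2 (position 71281389), a place chosen after the values were seen, which leaves 21 members on the side of the centromere and 46 on the side of the telomere. On the centromere side the median in treated cells was -0.43 for MUT and -0.33 for WT, both against EV, and -0.09 for MUT against WT. On the telomere side the medians were -0.55, -0.22 and -0.34. In treated MUT against WT 6 were called lower and 1 higher of 21 on the centromere side, and 28 lower and 2 higher of 46 on the telomere side, beside 9.48% lower and 10.4% higher over all tested genes. These counts come from the values that placed the split and give it no support. Untreated cells gave medians of -0.43, -0.33 and -0.08 for the same contrasts on the centromere side and of -0.56, -0.22 and -0.30 on the telomere side.

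**Figure D2:**
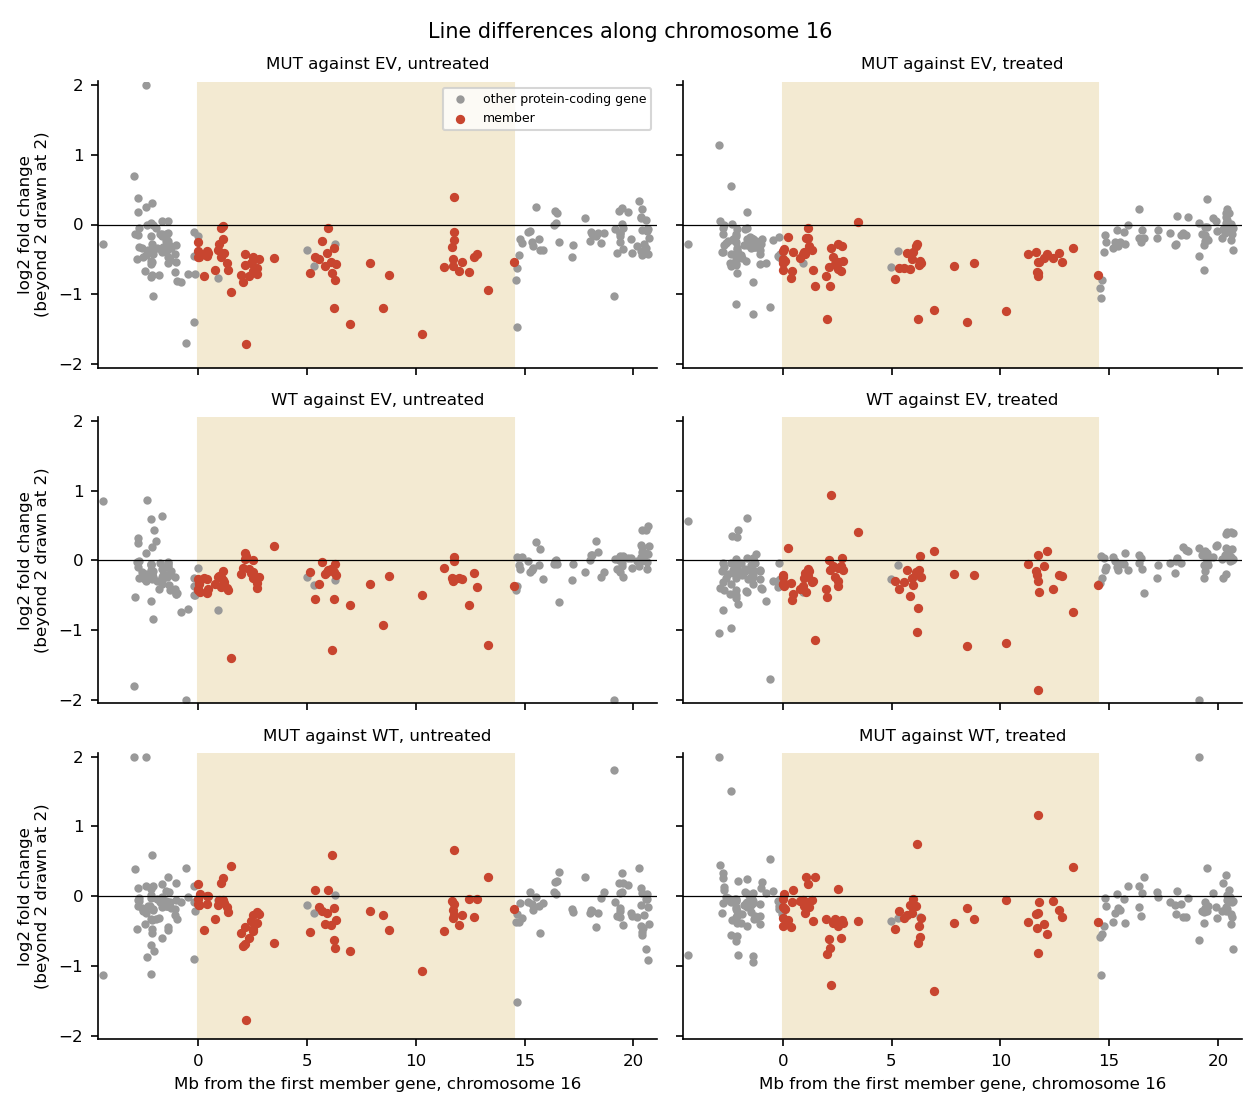
Log2 fold change (y axis, values beyond 2 drawn at 2) of protein-coding genes along chromosome 16 against the distance in Mb from the first member gene (x axis), for 3 line contrasts untreated (left) and after cytarabine (right). Red points are the 67 members, grey points other genes, and the shaded band is the interval of 14.5 Mb. In treated MUT against EV the quartiles of the members are -0.65 and -0.40, and the points return towards 0 on the right of the band.

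The edges of the shift differed. On the centromere side genes before the interval were already below EV in treated MUT, with a median of -0.29 over the 31 genes from 4 to 2 Mb before the first member and -0.30 over the 36 genes of the last 2 Mb. Within the interval the medians were -0.43 over the first 2 Mb, -0.53 from 2 to 4 Mb, -0.62 from 4 to 6 Mb, -0.55 from 6 to 8 Mb, -0.61 from 10 to 12 Mb and -0.48 over the 7 genes from 12 Mb to the end of the interval. Only 2 genes, VAT1L and WWOX, start between 8 and 10 Mb. Beyond the interval the median was -0.25 over the next 2 Mb, then -0.15 and -0.05 towards the telomere. In treated WT against EV the medians before the interval were -0.19 and -0.20. Over the 67 members that contrast had a median of -0.25, and over the 46 on the telomere side -0.22. The lower level in WT was thus nearly as large in genes before the interval as in the members. Beyond the interval the WT against EV medians were -0.06, -0.04 and 0.07. These bins hold all protein-coding genes with the same count minimum, the 4 left-out genes included.

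Values just outside the limits are given as a description. The 5 nearest on the centromere side had treated MUT against EV log2 fold changes of -0.46 (HAS3), -0.18 (CHTF8), -0.46 (UTP4), -0.42 (SNTB2) and -0.51 (AC026464.4). On the telomere side they were -0.90 (MLYCD, malonyl-CoA decarboxylase), -1.06 (OSGIN1, an oxidative stress-induced growth inhibitor), -0.80 (NECAB2), -0.40 (MBTPS1, the protease that activates the sterol-responsive factors) and -0.16 (HSDL1). The last member, HSBP1, stood at -0.72. Low values thus went on past the last member as far as MBTPS1, although NECAB2 was not called. The 4 genes left out by the rule lay within the range of the members, with a median of -0.55 and values of -0.55 for AARS, -0.62 for PSMD7, -0.38 for RFWD3 and -0.55 for KARS. On other chromosomes the medians in this contrast lay between -0.12 (chromosome 9) and 0.27 (chromosome 13).

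The count minimum of 20 fell among low genes. Just inside were ZNF19 with a mean of 25.9 counts, C16orf46 with 27.2 and CNTNAP4 with 27.3, whose treated MUT against EV log2 fold changes were -0.88, -0.74 and -1.23. Just outside were NPIPB15 with 18 counts, AC092718.8 with 17.4 and PMFBP1 with 11.4, with -0.93, -0.77 and -0.36. Of the 25 protein-coding genes under the minimum 10 entered the test, with a median of -0.72. The 25 tested rows of the interval that are not protein-coding had a median of -0.60.

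**Figure D3:**
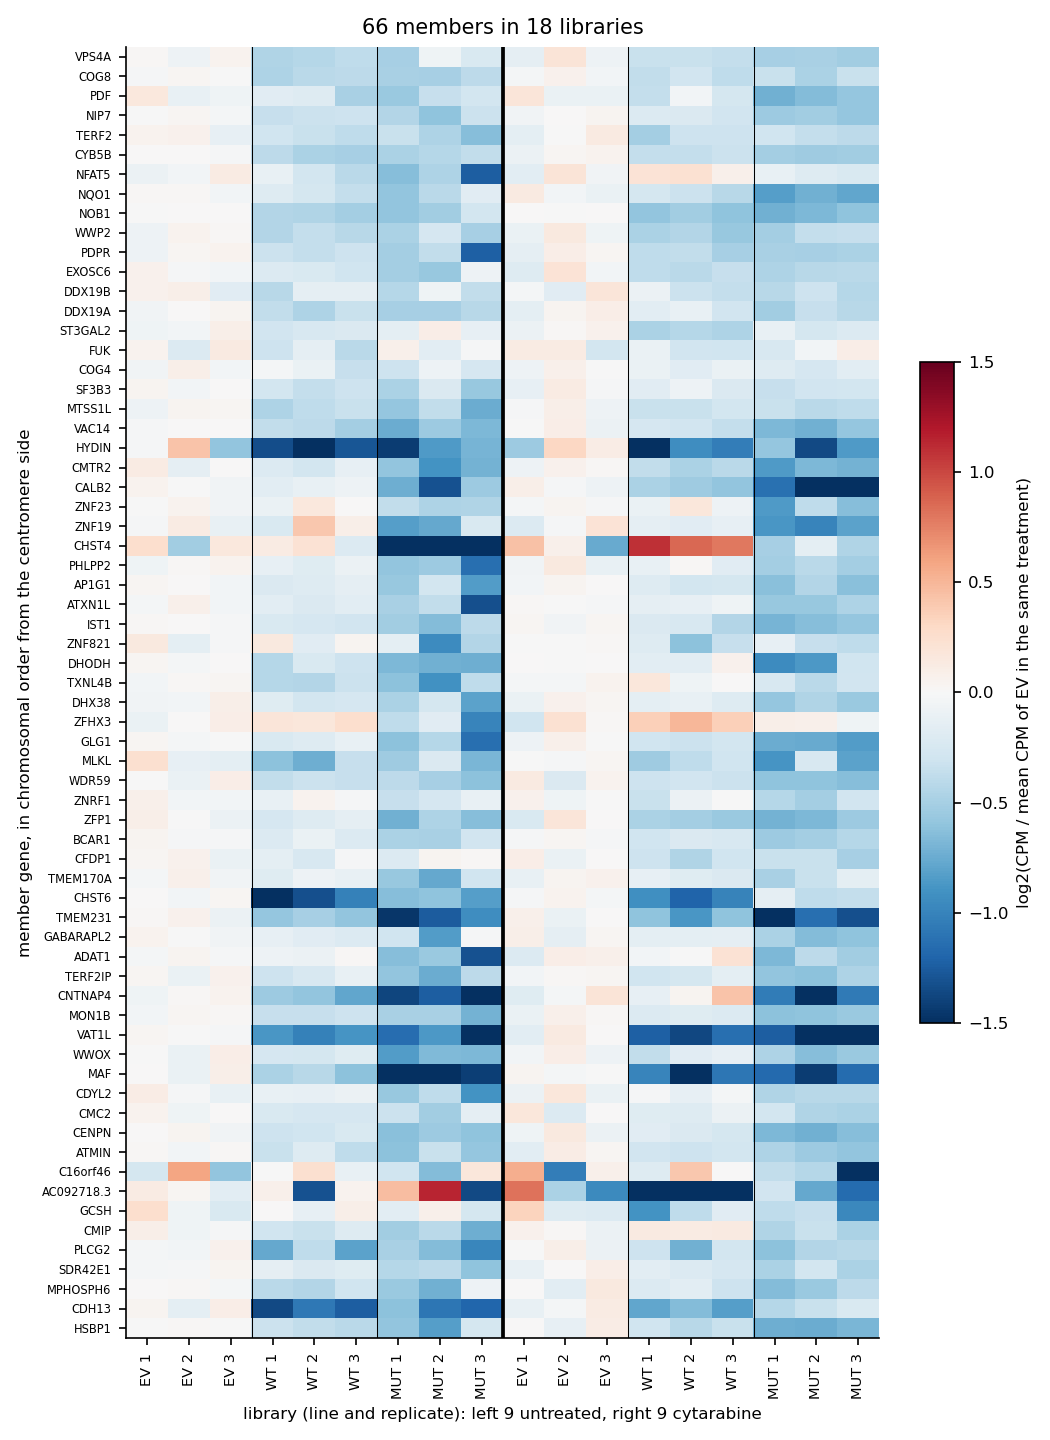
Log2 ratio of CPM to the mean EV level of the same treatment (colour, clipped at 1.5 either way) for 66 of the 67 members in chromosomal order (rows) and the 18 libraries (columns), the left 9 untreated and the right 9 after cytarabine. Blue is below EV. Most rows are blue in WT and a deeper blue in MUT, while CHST4, ZFHX3, NFAT5 and AC092718.3 run red in some WT or MUT columns.

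Telomere, centromere and genome maintenance genes of the block were lower in treated MUT in 5 of 5 cases, TERF2, TERF2IP, CENPN, ATMIN and CFDP1. In treated WT 4 of the 5 were called lower than EV. Over the whole block 80.6% of members were called lower in treated MUT and 46.3% in treated WT, both against EV. Over all tested genes these shares were 7.13% and 9.12%. Counts for this and the following role lists stand beside these shares, and differences between a list and the block were not tested. TERF2 encodes the shelterin subunit that keeps chromosome ends from being read as breaks. It was at 57.3, 57.5 and 50.7 CPM in untreated EV, 44.8, 43.6 and 42.3 in WT and 43.7, 40.1 and 35.3 in MUT. After cytarabine it was at 40.4, 44.6 and 49.1 CPM in EV, 31.5, 36 and 36.1 in WT and 36.4, 34.9 and 34.1 in MUT. Both DNMT3A lines lay below EV without overlap in both treatments, and MUT overlapped WT. Treated MUT differed from EV by -0.35 (SE 0.0872, adjusted p 0.0115, edgeR). That call was lost without treated EV replicate 3 (-0.27, adjusted p 0.0821, edgeR) and without treated MUT replicate 3 (-0.33, adjusted p 0.0532, edgeR).

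TERF2IP (RAP1), which binds TERF2 at telomeres, separated all 3 lines. Its CPM was 82.9, 75.4 and 85 in untreated EV, 65.2, 68.9 and 75.3 in WT and 53.9, 48.6 and 61.7 in MUT. The treated libraries held 87.1, 90.5 and 91.2 in EV, 72.8, 74.4 and 80.7 in WT and 59.6, 58.3 and 65 in MUT. EV was highest and MUT lowest with no overlap between any pair of lines. In treated cells the log2 fold change was -0.55 against EV (SE 0.0823, adjusted p 1.7e-04, edgeR). WT against EV, at -0.24, was not called (adjusted p 0.0541, edgeR). The rows of TERF2IP and KARS overlap in the table.

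CENPN, which reads the centromere's own histone variant and anchors the inner kinetochore, showed the same steps. Untreated cells gave 93.2, 95.6 and 89.6 CPM in EV, 74.6, 75.4 and 79.2 in WT and 60.2, 63.5 and 61.1 in MUT. Treated cells gave 66.4, 76.7 and 65.5 CPM in EV, 61.7, 59.9 and 58.1 in WT and 43.6, 42.1 and 44.7 in MUT. The lines did not overlap in either treatment. Treated MUT differed from EV by -0.68 on the log2 scale (SE 0.0659, adjusted p 2.2e-06, edgeR) and from WT by -0.46 (adjusted p 6.3e-05, edgeR).

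ATMIN encodes a partner of the damage kinase ATM. It stood at 105, 101 and 105 CPM in untreated EV, 82.3, 90.3 and 79.5 in WT and 67.5, 82.4 and 69.3 in MUT, and MUT overlapped WT there. With cytarabine the values were 86.2, 104 and 97.9 in EV, 78.6, 77.3 and 79.1 in WT and 69.6, 65.8 and 63.7 in MUT, with no overlap. The treated MUT against EV difference was -0.53 (SE 0.0805, adjusted p 2.2e-04, edgeR). CFDP1 lay at -0.39 in the same contrast (adjusted p 0.00514, edgeR).

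**Figure D4:**
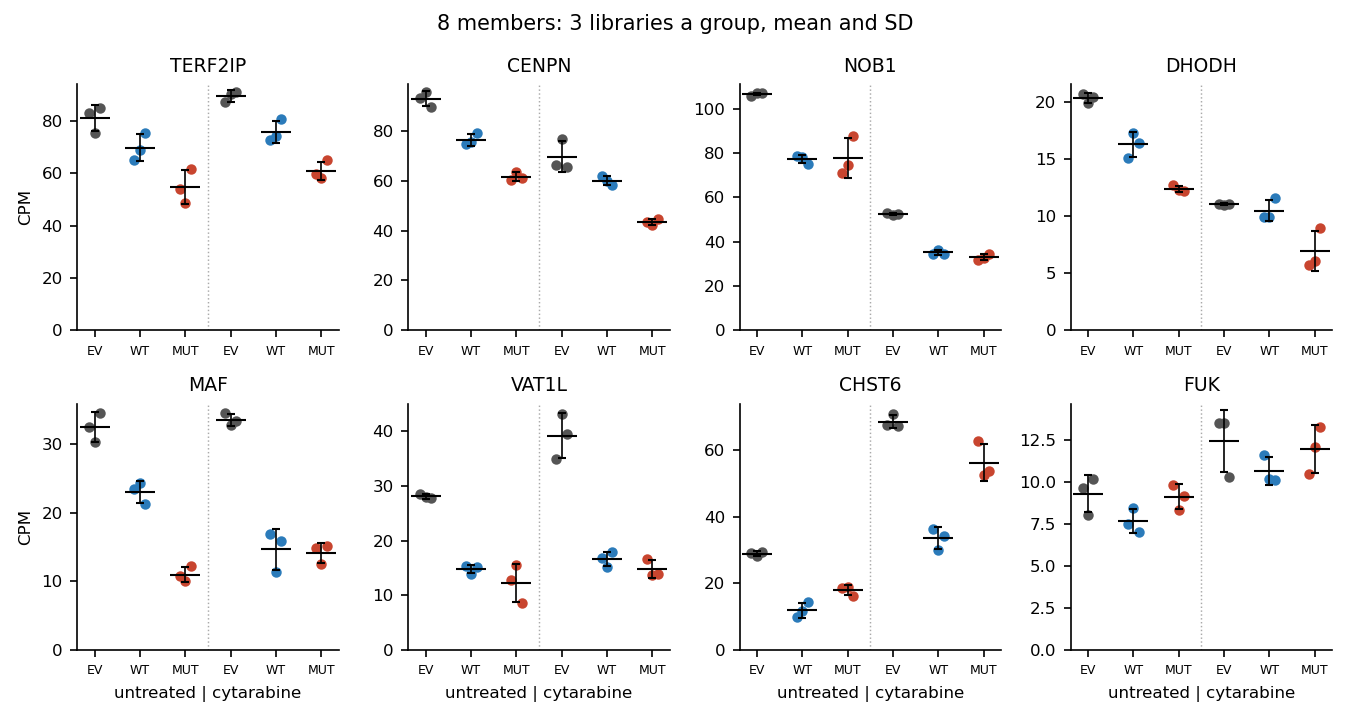
CPM (y axis, from 0, a separate scale for each gene) of 8 members in the 6 groups (x axis, untreated left and cytarabine right of the dotted line). Points are the 3 libraries of a group, the long bar is their mean and the whiskers are 1 SD. TERF2IP, CENPN and MAF step down from EV to MUT without treatment, NOB1 falls with cytarabine in each line, CHST6 rises with it, and FUK overlaps between lines.

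RNA processing, export and translation genes were called lower in treated MUT against EV in 11 of 11 cases, with values from -0.66 to -0.31 and a median of -0.52. Against EV, treated WT had 3 of the 11 called lower. The shares over the whole block were 80.6% in MUT and 46.3% in WT, and over all tested genes 7.13% and 9.12%. SF3B3, a subunit of the SF3b complex that recognises the branch point in splicing, was at 305, 289 and 297 CPM in untreated EV, 246, 232 and 240 in WT and 213, 256 and 200 in MUT. In treated cells it was at 175, 208 and 189 CPM in EV, 170, 181 and 164 in WT and 150, 156 and 157 in MUT. MUT lay below EV in both treatments, and WT did so only without treatment. The treated difference of -0.31 (SE 0.0811, adjusted p 0.0163, edgeR) was not called without treated EV replicate 2 (-0.24, adjusted p 0.0822, edgeR) or without treated MUT replicate 1 (-0.28, adjusted p 0.0680, edgeR).

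The ribosome assembly genes NOB1 and NIP7 carried 2 separate differences, one between lines and one with the drug. NOB1, the nuclease that finishes the RNA of the small ribosomal subunit, was at 106, 107 and 107 CPM in untreated EV, 78.9, 78.1 and 75.1 in WT and 71, 74.6 and 87.8 in MUT. After cytarabine it was at 52.9, 52.1 and 52.5 CPM in EV, 34.7, 36.5 and 34.5 in WT and 31.9, 32.9 and 34.5 in MUT. EV lay above both other lines in each treatment, WT and MUT overlapped, and every treated library lay below every untreated one of its line. The log2 fold change in treated cells was -0.66 in MUT and -0.58 in WT, both set against EV (adjusted p 5.7e-06 and 1.5e-05, edgeR).

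NIP7, needed for large ribosomal subunit assembly, held 114, 117 and 112 CPM in untreated EV, 90.3, 91.6 and 92.1 in WT and 84.2, 75.1 and 91.3 in MUT. Treated libraries held 57.4, 60.1 and 61.7 CPM in EV, 52, 51.6 and 48.8 in WT and 40.8, 41.6 and 39.9 in MUT. The treated lines were ordered EV, WT, MUT with no overlap, at -0.55 for MUT against EV (SE 0.0673, adjusted p 2.3e-05, edgeR). PDF, the mitochondrial peptide deformylase, was at 46.7, 38.7 and 40.0 CPM in untreated EV, 37.3, 36.5 and 29.9 in WT and 28.4, 33 and 34.6 in MUT. With cytarabine it was at 27, 22.3 and 22.2 CPM in EV, 18.6, 23.2 and 19.8 in WT and 14.5, 15.2 and 15.9 in MUT, where MUT lay below both other lines. PDF shares its stretch with COG8 in the table.

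The other 7 RNA genes are given by their fold changes. In treated MUT against EV the log2 fold changes were -0.52 for DHX38, a spliceosomal helicase, -0.43 and -0.39 for the messenger RNA export helicases DDX19A and DDX19B, and -0.43 and -0.53 for the exosome-linked EXOSC6 and MPHOSPH6. ADAT1, a transfer RNA deaminase, and TXNL4B stood at -0.53 and -0.31. All 7 were called lower in edgeR, and DDX19B, EXOSC6, MPHOSPH6, ADAT1 and TXNL4B each lost the call in at least 1 fit with a library left out. DDX19A and DDX19B are close copies side by side, so reads may be split between them.

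Golgi, endosome and autophagy genes were called lower in treated MUT against EV in 9 of 10 cases, with a median of -0.58, and in treated WT in 6 of 10. GLG1, a Golgi sialoglycoprotein, was among the 6 lowest of the better expressed members. It held 245, 234 and 239 CPM in untreated EV, 205, 209 and 221 in WT and 156, 178 and 109 in MUT. The treated values were 228, 254 and 239 CPM in EV, 195, 192 and 199 in WT and 144, 142 and 135 in MUT. No pair of lines overlapped, and treated MUT lay -0.77 from EV on the log2 scale (SE 0.11, adjusted p 1.2e-04, edgeR).

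AP1G1 encodes the large gamma subunit of the clathrin adaptor AP-1. Its untreated CPM was 117, 115 and 111 in EV, 98.7, 100 and 104 in WT and 76.9, 94.5 and 64 in MUT, and its treated level 95.4, 101 and 98.5 CPM in EV, 86.3, 81.4 and 81.6 in WT and 63.8, 72.2 and 63.5 in MUT. The lines kept the order EV, WT, MUT without overlap, with -0.57 for treated MUT against EV (SE 0.096, adjusted p 6.0e-04, edgeR). IST1, an ESCRT-III protein of membrane scission, was at 113, 112 and 111 CPM in untreated EV, 95.8, 94.4 and 92.1 in WT and 78.2, 71.1 and 85.4 in MUT. Treatment left it at 103, 97.5 and 103 CPM in EV, 87.3, 85.8 and 74.9 in WT and 62.2, 64.8 and 67.5 in MUT, again without overlap. MUT against EV was -0.64 (SE 0.0716, adjusted p 8.7e-06, edgeR), and ATXN1L and ZNF821 overlap IST1 in the table.

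VPS4A, the ATPase that takes ESCRT-III apart, is the first member. Untreated it was at 166, 155 and 169 CPM in EV, 119, 121 and 125 in WT and 116, 156 and 139 in MUT, with MUT replicate 2 inside the EV range. Treated it was at 120, 151 and 125 CPM in EV, 105, 105 and 103 in WT and 93.5, 94.5 and 92.3 in MUT, with MUT below WT and WT below EV. The treated MUT against EV difference was -0.50 (SE 0.091, adjusted p 0.00115, edgeR).

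The 2 subunits of the conserved oligomeric Golgi (COG) complex in the interval differed in their calls, though the difference between them was not tested. COG8 was at 41.8, 43.1 and 42.2 CPM in untreated EV, 30.7, 32 and 32.4 in WT and 30.2, 30.1 and 32.2 in MUT, then at 32.3, 34.2 and 32 CPM in EV, 25.4, 26.9 and 25.3 in WT and 26, 23.7 and 26 in MUT after treatment. WT and MUT overlapped each other below EV, and treated MUT was -0.38 from EV (SE 0.0658, adjusted p 7.4e-04, edgeR). COG4 was at 44.3, 48.5 and 44.6 CPM in untreated EV, 44.9, 42.8 and 35.9 in WT and 37, 43.5 and 38.4 in MUT. Its treated values of 40.6, 45.2 and 42.5 CPM in EV, 40.0, 37.9 and 39.9 in WT and 37.3, 36 and 38.2 in MUT gave -0.20 for MUT against EV, which was not called (SE 0.0823, adjusted p 0.12, edgeR). COG4 was the 1 gene of the 10 not called. The rest were VAC14 (-0.66), a scaffold for the lipid kinase PIKfyve, MON1B (-0.59), part of a Rab exchange factor, GABARAPL2 (-0.58), of the autophagy ubiquitin-like family, and WDR59 (-0.62), which acts in amino acid sensing.

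Metabolic genes were called lower in treated MUT against EV in 7 of 9 cases, all but FUK (also on the glycan list) and GCSH. NQO1, a quinone reductase, was at 52, 51.8 and 49.7 CPM in untreated EV, 44.7, 42.5 and 39.9 in WT and 33.9, 38.6 and 45.5 in MUT. Treated libraries were at 48.2, 42.8 and 41.2 CPM in EV, 36.6, 35.2 and 33.1 in WT and 24.9, 26.8 and 25.7 in MUT. The treated lines did not overlap, and MUT lay -0.77 from EV (SE 0.0912, adjusted p 1.7e-05, edgeR) and -0.44 from WT (adjusted p 0.00197, edgeR).

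DHODH makes orotate on the way to new pyrimidines, the class of nucleotides that cytarabine imitates. It was at 20.7, 19.9 and 20.4 CPM in untreated EV, 15.1, 17.3 and 16.4 in WT and 12.7, 12.3 and 12.2 in MUT. After cytarabine it was at 11.1, 11 and 11.1 CPM in EV, 9.93, 9.94 and 11.6 in WT and 5.76, 6.08 and 8.98 in MUT. All lines were separate without treatment, and with treatment MUT lay below the overlapping EV and WT libraries. MUT against EV was -0.67 (SE 0.131, adjusted p 0.00198, edgeR) and MUT against WT -0.59 (adjusted p 0.00308, edgeR).

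GCSH, the carrier protein of the glycine cleavage system, did not separate the lines without treatment. It held 16.2, 13 and 11.6 CPM in EV, 13.7, 12.5 and 14.5 in WT and 12.2, 14.3 and 11.3 in MUT, and after cytarabine 11.4, 7.93 and 7.83 CPM in EV, 4.87, 6.97 and 8.03 in WT and 6.94, 7.13 and 4.62 in MUT. Treated MUT against EV was -0.54 and not called (SE 0.199, adjusted p 0.0772, edgeR), although the 3 MUT libraries lay below the EV libraries. The row AC092718.3 overlaps GCSH. The other called genes were CYB5B (-0.52), an outer mitochondrial membrane cytochrome, PDPR (-0.48), CMC2 (-0.40), SDR42E1 (-0.41) and VAT1L.

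VAT1L had the lowest treated MUT against EV value of the block, but its difference lay between EV and both DNMT3A lines. It was at 28.6, 27.9 and 27.7 CPM in untreated EV, 15.3, 13.9 and 15.2 in WT and 12.7, 15.5 and 8.51 in MUT. Treated it was at 35, 43.1 and 39.5 CPM in EV, 16.8, 15.2 and 17.9 in WT and 16.7, 13.7 and 13.9 in MUT. WT and MUT overlapped in both treatments and lay far below EV. MUT against EV was -1.40 (SE 0.141, adjusted p 2.7e-06, edgeR) and WT against EV -1.23 (SE 0.14, adjusted p 5.7e-06, edgeR), whereas MUT against WT was -0.17 (SE 0.144, adjusted p 0.446, edgeR).

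Glycan enzymes were the list with no call, 0 of 3, in treated MUT against EV, with values from -0.28 to -0.05. In 2 of them, ST3GAL2 and CHST6, MUT was called higher than WT. FUK, which phosphorylates fucose for reuse, was at 9.64, 8.06 and 10.2 CPM in untreated EV, 7.5, 8.47 and 7.04 in WT and 9.83, 8.36 and 9.19 in MUT. Treated it was at 13.5, 13.5 and 10.3 CPM in EV, 11.6, 10.2 and 10.1 in WT and 10.5, 12.1 and 13.3 in MUT. All lines overlapped in both treatments, and treated MUT against EV was -0.05 (SE 0.131, adjusted p 0.856, edgeR).

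ST3GAL2, a sialyltransferase, was lowest in WT. Untreated it was at 81.7, 83.1 and 90.9 CPM in EV, 69.7, 72.4 and 73.6 in WT and 77.2, 91 and 78.5 in MUT, and treated at 92.8, 100 and 103 CPM in EV, 70.9, 73.1 and 71.4 in WT and 91.3, 82.2 and 85.5 in MUT. MUT lay above WT in both treatments without overlap. In treated cells MUT against WT was 0.27 (SE 0.0716, adjusted p 0.0122, edgeR), a call lost without treated MUT replicate 1 (0.22, adjusted p 0.0747, edgeR).

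CHST6 adds sulphate to keratan sulphate chains. It was at 29.2, 28.2 and 29.5 CPM in untreated EV, 9.86, 11.6 and 14.3 in WT and 18.6, 19 and 16.3 in MUT. Cytarabine-treated cells held 67.6, 70.9 and 67.3 CPM in EV, 36.4, 29.9 and 34.2 in WT and 62.7, 52.5 and 53.7 in MUT. WT was lowest, MUT between and EV highest with no overlap. Treated WT against EV was -1.03 (SE 0.102, adjusted p 9.6e-07, edgeR) and MUT against WT 0.75 (SE 0.102, adjusted p 3.7e-05, edgeR).

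Transcription and chromatin genes were called lower in treated MUT against EV in 7 of 10 cases. MAF, a basic leucine zipper factor, was among the lowest. Untreated EV held 32.5, 30.3 and 34.6 CPM, WT 23.4, 24.4 and 21.2 and MUT 10.7, 10.0 and 12.2. Treated EV held 34.5, 32.8 and 33.4 CPM, WT 16.9, 11.3 and 15.8 and MUT 14.9, 12.5 and 15.1. All lines were separate without treatment, whereas with treatment WT and MUT overlapped below EV. MUT against EV was -1.24 (SE 0.12, adjusted p 2.1e-06, edgeR) and WT against EV -1.19 (SE 0.121, adjusted p 1.3e-06, edgeR).

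ZFHX3, a very large zinc finger and homeobox factor, was the 1 member above 0 in treated MUT against EV. Its untreated CPM was 67.3, 72.2 and 77.1 in EV, 81.8, 81.1 and 85.9 in WT and 55.3, 64.2 and 36.4 in MUT, with WT highest and MUT lowest without overlap. The treated CPM was 45, 64.4 and 56 in EV, 70.5, 77.6 and 70.6 in WT and 58.8, 58.3 and 52.8 in MUT. WT again lay above both other lines, which overlapped. MUT against EV was 0.04 (SE 0.143, adjusted p 0.897, edgeR) and WT against EV 0.40 (adjusted p 0.059, edgeR), neither called. Of 4 other rows that overlap ZFHX3 in the table none is a member.

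NFAT5, the transcription factor of the osmotic response, was at 72.3, 74.8 and 84.2 CPM in untreated EV, 71.5, 63.9 and 58.3 in WT and 49.4, 56 and 32.6 in MUT. With cytarabine it was at 58.3, 74.3 and 63 CPM in EV, 75, 76.2 and 68.9 in WT and 60.5, 57 and 55.5 in MUT. The untreated lines were separate, with the lowest value in MUT replicate 3, and the treated EV libraries overlapped both other lines. Treated MUT against EV was -0.17 and not called (SE 0.135, adjusted p 0.451, edgeR). ZNF821 was the third gene of the list not called (-0.27). Called lower were HSBP1 (-0.72), which binds heat shock factor, ZFP1 (-0.64), ZNF23 (-0.61), ZNF19 (-0.88), ATXN1L (-0.53) and CDYL2 (-0.43), a chromodomain protein.

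Ubiquitin, signalling and cell death genes were called lower in treated MUT against EV in 10 of 11 cases. WWOX, a tumour suppressor oxidoreductase that lies across a common fragile site, was at 18.8, 17.6 and 20.3 CPM in untreated EV, 15.9, 15.7 and 16.6 in WT and 10.6, 11.9 and 11.8 in MUT. Treated it was at 21.6, 23.8 and 21 CPM in EV, 17.2, 19.7 and 20.4 in WT and 16.1, 14.2 and 15.1 in MUT. The lines did not overlap in either treatment, and treated MUT was -0.55 from EV (SE 0.0916, adjusted p 5.4e-04, edgeR).

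BCAR1 (p130Cas), an adhesion adaptor, gave a similar picture from a higher count. Untreated it was at 157, 151 and 151 CPM in EV, 133, 143 and 133 in WT and 110, 109 and 125 in MUT, and treated at 124, 128 and 124 CPM in EV, 102, 108 and 106 in WT and 85.6, 88.3 and 93 in MUT. The lines were separate in both treatments, with -0.50 for treated MUT against EV (SE 0.0638, adjusted p 4.2e-05, edgeR). CALB2 (calretinin), a calcium-binding protein, was lowest in MUT. It was at 28.4, 27.3 and 26.4 CPM in untreated EV, 24.6, 25.4 and 25.9 in WT and 16.5, 11.1 and 18.7 in MUT, and at 28.8, 26.7 and 25.6 CPM in EV, 19.5, 18.7 and 17.9 in WT and 12.4, 9.53 and 9.63 in MUT after treatment. No lines overlapped, and treated MUT was -1.36 from EV (SE 0.136, adjusted p 2.6e-06, edgeR).

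CDH13 (T-cadherin), a cadherin held to the membrane by a lipid anchor, was the 1 gene of this list not called. Untreated it was at 18.8, 16.5 and 19.6 CPM in EV, 7.16, 8.73 and 7.75 in WT and 11.9, 8.62 and 8.05 in MUT, and treated at 17.9, 18.9 and 21 CPM in EV, 11.2, 12.3 and 10.9 in WT and 14.3, 15.3 and 16.4 in MUT. WT was lowest in the treated cells, without overlap. MUT against EV was -0.33 (SE 0.124, adjusted p 0.0843, edgeR) and WT against EV -0.75 (SE 0.127, adjusted p 4.2e-04, edgeR). Treated MUT against WT, 0.42 with an adjusted p of 0.026 in edgeR, was not called without treated MUT replicate 2 or 3, or without treated WT replicate 1 or 3 (0.36 to 0.42, adjusted p 0.0592 to 0.105, edgeR).

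Among the other called genes of this list were the ubiquitin ligases WWP2 (-0.40) and ZNRF1 (-0.41). PHLPP2 (-0.47) removes phosphate from AKT, and CMIP (-0.42) and PLCG2 (-0.48) are signalling proteins. MLKL (-0.62) is the effector of necroptosis. PLCG2 and MLKL lost the call in at least 1 fit with a library left out.

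Of the 9 members on no role list 5 were called lower in treated MUT against EV. TMEM231, a protein of the ciliary transition zone, was at 25.1, 25.9 and 23.2 CPM in untreated EV, 16.5, 17.5 and 16.4 in WT and 9.03, 10.4 and 13 in MUT. Treated it was at 20.1, 17.8 and 19.1 CPM in EV, 12.5, 10.4 and 12.5 in WT and 6.02, 8.67 and 7.63 in MUT. The lines were separate in both treatments, with -1.36 for treated MUT against EV (SE 0.133, adjusted p 2.3e-06, edgeR) and -0.69 for WT against EV (adjusted p 0.00104, edgeR). CMTR2, a cap methyltransferase, lay at -0.74, MTSS1L at -0.37, TMEM170A at -0.31 and CNTNAP4, a neurexin relative near the count minimum, at -1.23.

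The 4 members of that group without a call had low counts. HYDIN, a protein of motile cilia, was at 1.46, 1.99 and 0.984 CPM in untreated EV, 0.588, 0.476 and 0.605 in WT and 0.552, 0.818 and 0.914 in MUT, and at 2.25, 4.06 and 3.55 CPM in EV, 1.11, 1.73 and 1.6 in WT and 2.2, 1.29 and 1.83 in MUT after treatment. Both DNMT3A lines lay below EV and overlapped each other. Treated MUT against EV was -0.88 (SE 0.295, adjusted p 0.0535, edgeR). HYDIN has a close copy elsewhere in the genome, so its counts are uncertain.

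CHST4, a sulphotransferase, was at 3.1, 1.81 and 2.89 CPM in untreated EV, 2.84, 3.02 and 2.25 in WT and 0.752, 0.818 and 0.8 in MUT. Treated it was at 1.86, 1.44 and 0.813 CPM in EV, 2.92, 2.49 and 2.37 in WT and 0.967, 1.24 and 1 in MUT. WT lay above EV in the treated cells only, and MUT lay below WT in both treatments. CHST4 was the 1 member called higher in treated WT against EV (0.93, SE 0.279, adjusted p 0.0272, edgeR), a call lost without treated EV replicate 2 or 3 or without treated WT replicate 1 or 2 (0.65 to 0.97, adjusted p 0.0523 to 0.138, edgeR). It overlaps ZNF19.

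AC092718.3, a row with no gene name that overlaps GCSH and C16orf46, was at 5.08, 4.79 and 4.18 CPM in untreated EV, 4.95, 1.9 and 4.84 in WT and 6.47, 10.3 and 1.83 in MUT, and at 9.93, 4.06 and 2.91 CPM in EV, 1.62, 1.57 and 1.45 in WT and 4.61, 3.3 and 2.53 in MUT after treatment. Untreated lines overlapped throughout, and treated WT lay below both EV and MUT. WT against EV was -1.86 (adjusted p 0.0178, edgeR), a call lost without treated EV replicate 1 or any 1 of the treated WT replicates (-1.90 to -1.15, adjusted p 0.0541 to 0.157, edgeR). C16orf46 stood at -0.74 in treated MUT against EV, without a call.

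Several members are subunits of complexes whose other genes lie elsewhere, which gives a comparison within each complex. Over 8 complexes and pathways, 11 members had a median of -0.54 in treated MUT against EV, with 9 called lower and 0 higher in edgeR. The 56 other tested genes of the same complexes and pathways, 4 of them elsewhere on chromosome 16, had a median of 0.02, with 2 called lower and 5 higher. Over all tested genes 7.13% were called lower and 6.85% higher in this contrast. Calls on single partner genes, here and below, stand beside these shares. Among shelterin genes TERF2 and TERF2IP stood at -0.35 and -0.55, and TERF1, TINF2, ACD and POT1 at 0.10, 0.02, -0.05 and -0.19, none called. In the inner kinetochore CENPN stood at -0.68, and the other 14 genes between -0.18 and 0.36, with 0 called lower and 2 higher. SF3B3 stood at -0.31 and the other 6 genes of SF3b between -0.14 and 0.18, the highest, SF3B1, called higher.

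Membrane traffic gave the same split. VPS4A and IST1 stood at -0.50 and -0.64, and the 13 other genes of ESCRT-III and its ATPase between -0.17 and 0.13, none called. AP1G1 stood at -0.57 and the 6 other AP-1 genes between -0.16 and 0.35. The COG complex was less clear, with COG4 and COG8 at -0.20 and -0.38 and the 6 others between -0.48 and 0.09, where 1, COG2 on chromosome 1, stood at -0.48 and was called lower. In pyrimidine synthesis DHODH stood at -0.67, and CAD, UMPS, CTPS1 and CTPS2 at 0.54, -0.02, -0.19 and -0.20, with CAD called higher and CTPS1 lower. In glycine cleavage GCSH stood at -0.54, and GLDC, AMT and DLD at 0.55, -0.32 and -0.12, none of the 4 called.

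Members that are targets or drivers of a response were set against its other genes. NQO1 is a textbook target of the oxidative stress factor NRF2. It stood at -0.77, and 11 other targets had a median of -0.15, with 2 called lower and 1 higher. The shares over all tested genes were 7.13% lower and 6.85% higher. The lowest of these, OSGIN1 at -1.06, starts just past the last member. NFAT5 stood at -0.17, and 4 genes it is known to drive (AKR1B1, SLC5A3, SLC6A6 and HSPA1B) at -0.40, 0.12, -0.03 and -0.18, with 1 called lower.

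**Figure D5:**
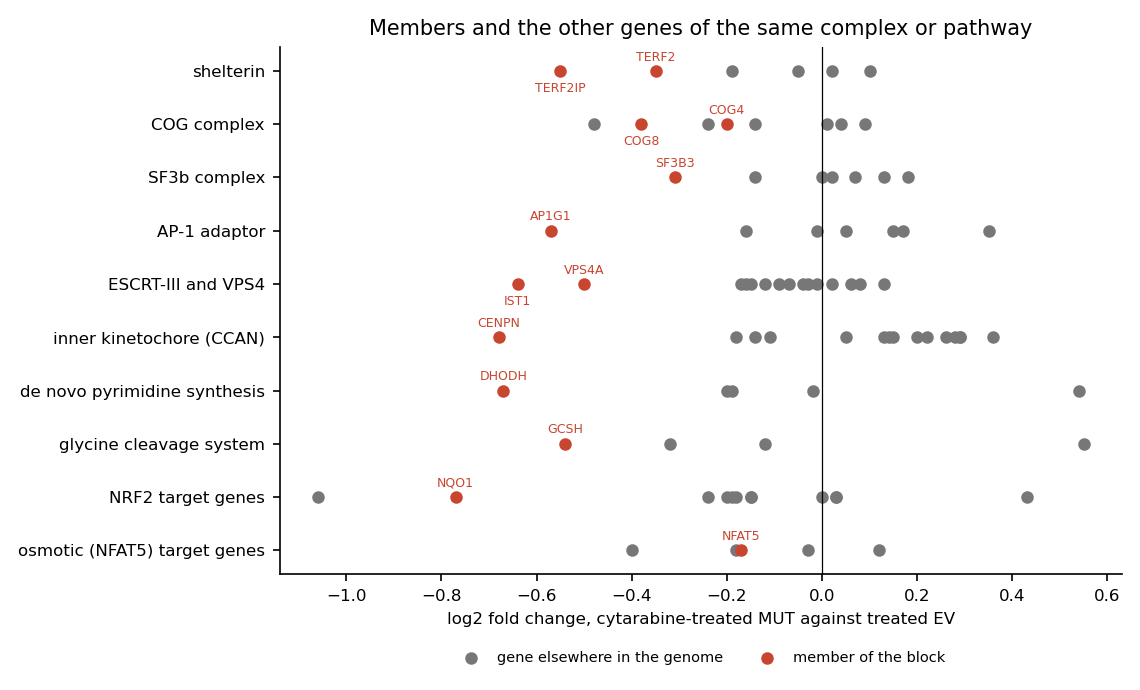
Log2 fold change of treated MUT against treated EV (x axis) for the genes of 10 complexes or pathways (rows). Red points are members of the block, with their names, and grey points are genes elsewhere in the genome. Most red points lie to the left of the grey points of their row, COG4 and NFAT5 less so, with OSGIN1 at -1.06 (next to the interval) and COG2 at -0.48 as grey exceptions.

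Cytarabine changed members in both directions within each line. The untreated libraries enter these effects and also the contrasts that chose the block. In EV the median effect was -0.14 over the members and 0.05 over all tested genes, and 23 members fell and 10 rose in edgeR, where 22.9% of all tested genes fell and 26.1% rose. In WT the medians were -0.12 and 0.03, and 26 members fell and 10 rose, against 22.7% and 26.3%. In MUT the medians were -0.19 and 0.05, and 30 fell and 14 rose, against 25.9% and 30.4%. Of the 12882 other protein-coding genes with the same count minimum 29.4% fell in EV, 27.6% in WT and 30.9% in MUT. In numbers 3791 of these fell and 3723 rose in EV, 3560 and 3845 in WT, and 3977 and 4329 in MUT. Among members 34.3%, 38.8% and 44.8% fell. Over fits without single libraries the counts of called members ran from 26 to 32 in EV, 28 to 34 in WT and 39 to 47 in MUT. In a fit of only the MUT libraries the count was 31. The differences between lines in these effects were not tested.

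Most RNA genes of the block fell. Of the 11 RNA processing, export and translation members 10 fell in EV, 8 in WT and 9 in MUT. Over all tested genes 22.9% fell in EV, 22.7% in WT and 25.9% in MUT, and over all members 34.3%, 38.8% and 44.8%. The difference between this list and other genes was not tested. Of the 11, 1, ADAT1, rose in WT and in MUT, the call in WT being lost in at least 1 fit without a library. NOB1 had the largest fall in EV and MUT, at -1.02 in EV, -1.14 in WT and -1.23 in MUT (SE 0.0693, 0.0706 and 0.0708, adjusted p 1.2e-09, 3.4e-10 and 1.0e-10, edgeR). NIP7 fell by 0.94, 0.85 and 1.04 on the log2 scale in the same order of lines, and PDF by 0.81, 0.75 and 1.07. SF3B3 fell by 0.64, 0.48 and 0.53. All treated libraries of these 4 genes lay below the untreated libraries of their line. The 6 other SF3b genes, which lie outside the interval, had medians of -0.46, -0.45 and -0.63 in the same effects.

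Some members of other groups fell as well. DHODH fell by 0.88 in EV, 0.63 in WT and 0.84 in MUT on the log2 scale (adjusted p 9.8e-06, 3.4e-04 and 2.2e-05, edgeR), and its treated libraries lay below the untreated ones in each line. CENPN fell by 0.42, 0.35 and 0.50, and CFDP1 by 0.65, 0.87 and 1.00. GCSH fell by 1.04 in WT and 1.02 in MUT (adjusted p 2.1e-04 and 2.1e-04, edgeR). Its fall of 0.58 in EV was not called without treated EV replicate 2 or 3 or without untreated EV replicate 1 (-0.50 to -0.44, adjusted p 0.0630 to 0.10, edgeR).

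The rises were led by CHST6 and HYDIN. CHST6 rose by 1.24 in EV, 1.50 in WT and 1.65 in MUT on the log2 scale (SE 0.104, 0.112 and 0.108, adjusted p 1.5e-08, 3.6e-09 and 4.1e-10, edgeR). Every treated library of CHST6 lay above every untreated library of its line. HYDIN rose by 1.14, 1.40 and 1.23 from low counts (adjusted p 0.00436, 0.00277 and 0.00436, edgeR). MTSS1L, an actin and membrane-bending protein, rose by 0.36, 0.44 and 0.55, and CDYL2 by 0.61, 0.66 and 0.79. WWOX rose by 0.40 in MUT (adjusted p 0.00138, edgeR), and its values of 0.23 in EV and 0.25 in WT were called with all libraries. The EV call was lost without treated EV replicate 1 or 2 or untreated EV replicate 1 or 2 (0.17 to 0.24, adjusted p 0.0628 to 0.186, edgeR). The WT call was lost without treated WT replicate 2 or 3 or any 1 of the untreated WT replicates (0.20 to 0.27, adjusted p 0.0515 to 0.137, edgeR). FUK rose in each line, by 0.42, 0.47 and 0.39, with the calls in EV and MUT lost in at least 1 fit without a library.

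CHST4 and AC092718.3 were called in 1 line each, from few counts. CHST4 fell by 0.93 in EV (adjusted p 0.00988, edgeR), a call lost without treated EV replicate 3 or untreated EV replicate 1 (-0.65 and -0.79, adjusted p 0.0665 and 0.0516, edgeR). AC092718.3 fell by 1.33 in WT (adjusted p 0.0425, edgeR), a call that 5 of the 6 fits without a WT library lost (-1.37 to -1.12, adjusted p 0.0879 to 0.138, edgeR). MAF fell by 0.65 in WT (adjusted p 2.1e-04, edgeR) and rose by 0.37 in MUT (adjusted p 0.0189, edgeR). The MUT value was not called without treated MUT replicate 1 or 3 or without untreated MUT replicate 1 or 2 (0.27 to 0.35, adjusted p 0.0556 to 0.112, edgeR). In EV the MAF value was 0.05.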

How the data were processed

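Total RNA of 18 libraries was sequenced, per the labels' protocols, and the submitters' processing notes name CASAVA, STAR 2.6.1d and hg38. The counting program and whether it used strand are not given in the sources used here. Estimated counts for every gene are in a table the authors deposited, in which 70.9% of values are whole numbers (within 1e-09). They also deposited a table of normalized signal, equal to 1 plus the count times a factor per library, from which only these factors were used, as an alternative scaling.

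Estimated counts were rounded and fitted with edgeR 4.0.16 (R 4.3.3, TMM scaling, filterByExpr, glmQLFit and glmQLFTest) over all 18 libraries with 1 coefficient for each of the 6 groups. Of 25296 genes 18226 were tested, with Benjamini-Hochberg adjustment over these and a threshold of 0.05. CPM values use the TMM-scaled library sizes. The script was tested on simulated data. Replicate libraries differed beyond sampling noise (chi-square per degree of freedom 2.51 to 51.4), so each counts as 1 replicate.

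Members and gene lists were chosen with earlier results of these data known. Any member may be named. Values in every library are given for members of the partner lists, for 9 further members fixed by name, for the 6 lowest and 4 highest in treated MUT against EV among members whose log2 CPM averaged 1 or more, and for the 5 largest called cytarabine effects in each line. Promoter windows come from RefSeq (GRCh38.p14). CG was the only motif searched. Alternatives were other scalings (DESeq2 1.42.0 size factors, upper-quartile, the authors' factors), the DESeq2 test, other filters, a replicate block, fits of only the groups compared and each library left out. The values of 1 member are not reported here by name.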

Additional observations from a re-analysis of the deposited data

Results flagged for a closer look

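In 2 members the cytarabine effect went one way in every library of one line and the opposite way in every library of another. For MAF the effect was 0.37 in MUT and -0.65 in WT on the log2 scale, a difference of 1.02. For CNTNAP4 it was 0.50 in WT and -0.27 in EV, a difference of 0.77, from counts near the minimum. The untreated libraries, whose values chose the block, enter both differences. For MAF the MUT against WT log2 fold change was -1.068 untreated and -0.05 treated. For CNTNAP4 the WT against EV value was -0.635 untreated and 0.133 treated. Neither difference was tested, and both are given as a description.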

How the results depend on the processing

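No called value and no median over members changed direction under any setting. The median over members in treated MUT against EV was -0.55 to -0.49 over all settings. In treated MUT against WT it moved from -0.31 to -0.26 with a mean of at least 50 counts required and to -0.27 for members with at least 100, and ran from -0.30 to -0.28 with single libraries left out. In treated WT against EV it moved from -0.25 to -0.29 with at least 50 counts. In untreated MUT against EV it moved from -0.52 to -0.48 with the DESeq2 test, with DESeq2 size factors and with at least 50 counts, and ran from -0.53 to -0.48 with single libraries left out. In untreated MUT against WT it moved from -0.22 to -0.18 with the DESeq2 test, DESeq2 size factors or the authors' factors and to -0.20 with at least 50 counts, and ran from -0.24 to -0.17 with single libraries left out. The causes of these moves were not tested. The number of members called in treated WT against EV ran from 20 to 31 with single libraries left out, against 32. Without the 3 untreated MUT libraries, added after the data were seen, the numbers called were 60, 45 and 42 in treated MUT against EV, MUT against WT and WT against EV. With the replicate number as a block they were 53, 38 and 34, and 33, 37 and 44 for cytarabine in EV, WT and MUT. Same-numbered deviations from the group means correlated at -0.18 to 0.33, with r over 0.1 in 4 of 27 pairs. In 10 of 27 comparisons the library correlated best with its own number. In treated MUT against EV r was 0.27, -0.03 and 0.31 for replicates 1, 2 and 3. With 3 libraries a group, such correlations cannot show whether same-numbered cultures were handled together. Of the values of single members under these settings 5242 kept their direction and side of the threshold, 309 lost the call, 135 gained one and 113 changed sign without being called on either side. Rows with few counts, such as AC092718.3, CHST4 and HYDIN, limit what can be read from single genes.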
